A study of Mus musculus with 15 samples.

Results

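Integrins are cell surface receptors for the extracellular matrix, each made of 1 alpha and 1 beta subunit. The 9 subunit genes described here are a chosen set of those that form integrins outside the hemidesmosome: Itga2, Itga3, Itga5, Itgav, Itgb1, Itgb3, Itgb5, Itgb6 and Itgb8. They were chosen by name with earlier results of these data known, as were the gene lists below. Their counts beside the shares of all genes are therefore descriptive. The genes were read through the probe sets assigned to 1 gene alone, and all 9 of 9 were measured among 19938 genes. Each had a single probe set of its own. RNA came from FVB mouse ventral prostate epithelial cells and was hybridised to 15 whole-transcript arrays, 3 in each of 5 groups. The 4 line groups each carried an oncogene: the c-myc gene (Myc), the neuT gene, which encodes a constitutively active Erbb2 receptor (NeuT), the ha-ras gene, a small GTPase (Ras), and the v-src gene, a viral tyrosine kinase (Src). Untransduced primary cultures of the same epithelium were the control. The design text gives 3 lines for each oncogene, and no label says whether the lines, or the control cultures, came from separate animals, so the p-values cover only the variation among these arrays, part of which could be technical. The sources used here do not give the vector and promoter behind each oncogene, or the age of the animals. Lines grew in serum-containing DMEM, whereas control cultures were kept in a primary epithelial medium and moved to the serum medium only on the night before harvest, so oncogene and culture history cannot be told apart in any comparison with control.

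The alpha and beta partners set what an integrin binds. Itgb1 is the common beta subunit: with Itga2 it forms a collagen receptor, with Itga3 a receptor for epithelial laminin, and with Itga5 the main fibronectin receptor. Itgav pairs with Itgb1, Itgb3, Itgb5, Itgb6 or Itgb8 and mostly recognises the tripeptide RGD in fibronectin, vitronectin, tenascin and the latent form of TGF-beta. The Itgb6 and Itgb8 pairs are known for releasing active TGF-beta from its latent complex, and Itgb6 is largely restricted to epithelium. In the prostate these receptors attach basal and luminal cells to the basement membrane and stroma.

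Values are log2 expression. They are compared between arrays for the same gene only, since probe sets differ in brightness. The median of all gene values was 6.47 (the median level below), and values under it may be close to background, which was not measured. Differences from control are given with the SE from limma's moderated linear model over all 15 arrays, and a gene was called at a Benjamini-Hochberg adjusted p under 0.05 over all genes. In bulk cultures such as these, fewer cells of a type and less RNA per cell cannot be told apart.

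Some arrays stood apart, and of the oncogene probe sets examined not all rose with their labels. Erbb2 was at 9.50 ± 0.38 in the NeuT group and 7.80 ± 0.03 in control, whereas Myc was lower in the group labelled Myc (8.78 ± 0.17) than in control (9.70 ± 0.29; SD, n = 3 each). That group is therefore called Myc-labelled throughout. Src was at 7.08 ± 0.02 in the Src group and 7.04 ± 0.19 in control, Hras was not analysed here, and whether these probe sets read the transduced copies is not given in the sources used here. Control array 3 had 685 genes at least 2-fold higher and 2 lower than the mean of the other control arrays, and all 10 of 10 kidney tubule markers were among the higher ones. Results against control are therefore given with and without it where it matters. The 7 luminal epithelial markers averaged 6.48 to 7.22 on the Ras arrays, with 4 of 7 at or above the median level, and 10.12 to 10.24 on the Myc-labelled, 10.37 to 10.58 on the NeuT and 9.58 to 9.73 on the Src arrays, against 10.55 to 10.98 on the control arrays. The 9 basal markers averaged 7.78 to 7.93 on the Myc-labelled, 7.02 to 7.08 on the NeuT, 6.32 to 6.53 on the Ras and 9.72 to 9.92 on the Src arrays, against 9.35 to 9.88 on the control arrays. Of 10 fibroblast markers, 5 were at or above the median level in Ras cells against 4 in control, with list means of 5.96 to 6.30 on the Ras arrays against 5.81 to 6.07 on the control arrays. Both epithelial lists were thus low in Ras cells labelled as prostate epithelium, and the part of these marker shifts in the integrin results was not tested.

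**Figure D1:**
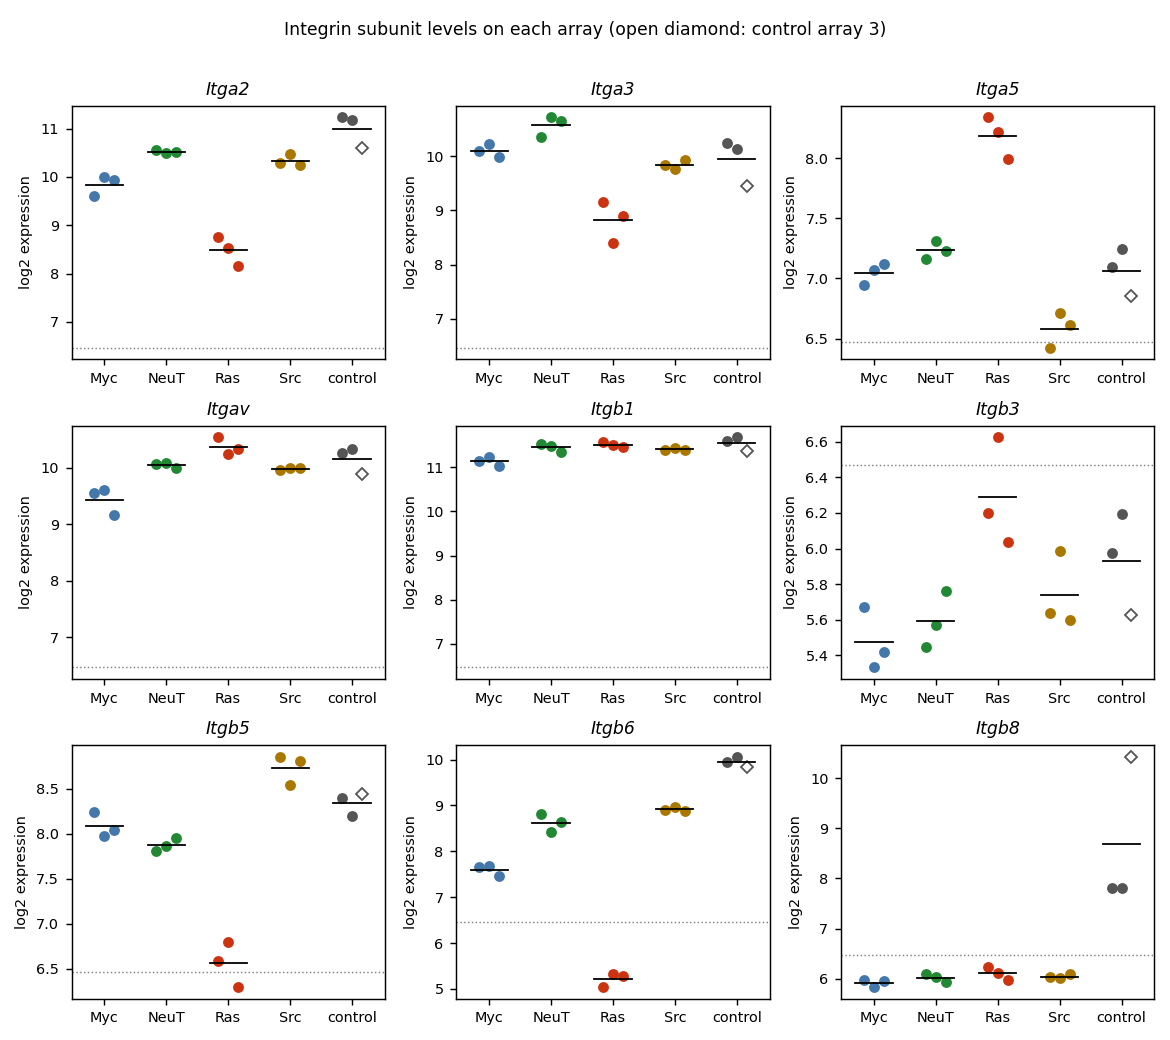
Log2 expression of the 9 integrin subunit genes on each of the 15 arrays, 1 panel per gene, with the groups Myc-labelled, NeuT, Ras, Src and control from left to right. Points are arrays, short lines are group means, the open diamond is control array 3 and the dotted line is the median level of 6.47. Itgb6 lies at 5.04 to 5.33 on the Ras arrays and at 9.83 to 10.06 on the control arrays, and Itgb8 is above 7 on the control arrays alone.

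Most of the called changes from control were decreases. Over the 4 oncogene groups together, 4 of 9 integrin genes were called against control, all 4 lower (Itga2, Itgb5, Itgb6 and Itgb8), where 28.7% of all genes were called, 15.4% higher and 13.4% lower. In the Myc-labelled group 0 of 9 were higher and 5 lower, where 28.6% of all genes were called, 15.9% higher and 12.7% lower. In the NeuT group 1 was higher and 3 lower (26.8% of all genes, 15.2% higher and 11.6% lower). In the Ras group 1 was higher and 5 lower (27.4%, 13.3% and 14.2%), and in the Src group 1 was higher and 4 lower (26.4%, 14.2% and 12.2%). With a change of at least 2-fold as well, 3 of 9 were called over the oncogene groups together (4.67% of all genes), 3 in the Myc-labelled group (6.46%), 2 in the NeuT group (5.93%), 6 in the Ras group (7.08%) and 2 in the Src group (4.44%). Without control array 3 the counts were 6 for the oncogene groups together (25.3% of all genes called), 6 for Myc-labelled (27.7%), 5 for NeuT (25.2%), 6 for Ras (26.7%) and 5 for Src (24.7%). With array weights, which give noisier arrays less influence, they were 8 together (37.6% of all genes called), 7 for NeuT (35.3%) and 8 for Src (36.6%). Brighter genes were called more often. Among the 10086 genes with a mean at or above the median level, which leave out Itgb3, 47.6% were called together. By group the shares were 48.5% in Myc-labelled, 46% in NeuT, 44% in Ras and 40.5% in Src cells. The integrin counts in that set were 4, 5, 5, 6 and 5. Itgb8 was in that set, with a mean of 6.55, only through its control arrays, since all 4 oncogene groups were below the median level. Its part in these counts therefore follows from how the set was made. The 4 comparisons share the control arrays, so a gene called in several of them is not independently called.

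Itgb6 had the lowest level of its 5 groups in the Ras cells and was lower than control in every oncogene group. It stood at 7.65, 7.67 and 7.45 on the Myc-labelled arrays, at 8.81, 8.42 and 8.64 on the NeuT arrays, at 5.04, 5.33 and 5.29 on the Ras arrays and at 8.90, 8.97 and 8.88 on the Src arrays, against 9.95, 10.06 and 9.83 on the control arrays. No oncogene array reached the control range, and the Ras arrays lay below every other array and below the median level. Relative to control, Itgb6 was lower by 26.5-fold in Ras (log2 difference -4.73 ± 0.11, adjusted p = 1.596e-12), by 5.12-fold in Myc-labelled (-2.35 ± 0.11, adjusted p = 3.913e-09), by 2.50-fold in NeuT (-1.32 ± 0.11, adjusted p = 8.318e-07) and by 2.04-fold in Src cells (-1.03 ± 0.11, adjusted p = 1.166e-05). Because the Ras level lies under the median level, the size of that change is less sure than its direction. Control array 3 differed from the other control arrays by -0.18 for Itgb6.

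Itga2, the alpha subunit of the collagen receptor, was also lowest in Ras and next lowest in Myc-labelled cells. Its level was 9.60, 10.00 and 9.93 on the Myc-labelled arrays, 10.56, 10.50 and 10.51 on the NeuT arrays, 8.76, 8.54 and 8.16 on the Ras arrays and 10.28, 10.47 and 10.25 on the Src arrays, against 11.24, 11.17 and 10.60 on the control arrays. No oncogene array overlapped the control range, and control array 3 was the lowest control array. Itga2 fell by 2.52 ± 0.17 in Ras (adjusted p = 7.213e-08), by 1.16 ± 0.17 in Myc-labelled (adjusted p = 0.0001321) and by 0.67 ± 0.17 in Src cells (adjusted p = 0.0108) on the log2 scale. The NeuT difference of -0.48 ± 0.17 did not pass (adjusted p = 0.0563) and did without control array 3 (-0.68, adjusted p = 0.00293) or without Ras array 1 or 3 (adjusted p = 0.0451 and 0.0338). It also passed with quantile normalization, a filter on dim genes, another variance model or array weights (adjusted p from 0.000187 to 0.0471).

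Itga3, the alpha subunit of the laminin receptor, was lower in Ras cells and slightly higher in NeuT cells. The arrays read 10.10, 10.22 and 9.98 for Myc-labelled, 10.36, 10.72 and 10.66 for NeuT, 9.16, 8.40 and 8.90 for Ras and 9.83, 9.77 and 9.93 for Src cells, against 10.24, 10.14 and 9.46 for control. The Ras arrays lay below all others and the NeuT arrays above all others. The Ras difference was -1.13 ± 0.20 (adjusted p = 0.0006501), a 2.18-fold decrease. The NeuT difference was 0.63 ± 0.20 (adjusted p = 0.0315), and it no longer passed without control array 3 (0.39, adjusted p = 0.124), in which Itga3 differed from the other control arrays by -0.73. It was also lost without NeuT array 2 or 3 (adjusted p = 0.112 and 0.0977) and with only the NeuT and control arrays in the fit (adjusted p = 0.0891). Neither Myc-labelled (0.15, 95% interval -0.28 to 0.59) nor Src cells (-0.10, -0.54 to 0.33) passed.

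Itga5, the alpha subunit of the fibronectin receptor, was the only one of the 9 genes called higher in Ras cells. Readings were 6.95, 7.07 and 7.12 on the Myc-labelled arrays, 7.16, 7.31 and 7.23 on the NeuT arrays, 8.34, 8.22 and 7.99 on the Ras arrays and 6.42, 6.71 and 6.61 on the Src arrays, against 7.09, 7.24 and 6.86 on the control arrays. The Ras arrays lay above and the Src arrays below all others, while the Myc-labelled and NeuT arrays each overlapped the control range and not each other. The increase in Ras cells was 2.17-fold (1.12 ± 0.11, adjusted p = 4.146e-06) and the decrease in Src cells 1.40-fold (-0.48 ± 0.11, adjusted p = 0.00661). Differences in the Myc-labelled (-0.02, 95% interval -0.26 to 0.23) and NeuT groups (0.17, -0.08 to 0.42) did not pass.

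Itgav, the alpha subunit of the RGD receptors, was lower in the Myc-labelled cells alone among the calls against control. It read 9.55, 9.61 and 9.17 on those arrays, 10.07, 10.08 and 10.00 on the NeuT, 10.55, 10.25 and 10.34 on the Ras and 9.96, 10.00 and 9.99 on the Src arrays, against 10.26, 10.33 and 9.89 on the control arrays. The Myc-labelled arrays lay below all other arrays, and the other oncogene groups overlapped control. Itgav fell by 0.72 ± 0.13 on the log2 scale in Myc-labelled cells (1.65-fold, adjusted p = 0.0006165). The NeuT (-0.11, 95% interval -0.39 to 0.17), Ras (0.22, -0.06 to 0.49) and Src differences (-0.17, -0.45 to 0.10) did not pass.

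Itgb1, the common beta subunit, varied least of the 8 genes that differed among the oncogene groups. It read 11.14, 11.23 and 11.02 on the Myc-labelled arrays, 11.52, 11.47 and 11.35 on the NeuT, 11.57, 11.51 and 11.45 on the Ras and 11.38, 11.44 and 11.39 on the Src arrays, against 11.60, 11.68 and 11.36 on the control arrays. Only the Myc-labelled arrays were clear of the control range. Itgb1 fell by 0.42 ± 0.09 there (1.33-fold, adjusted p = 0.00248), and the NeuT (-0.10), Ras (-0.04, 95% interval -0.23 to 0.16) and Src differences (-0.14) did not pass. Over the 4 oncogene groups together, Itgb1 (-0.17 ± 0.07, adjusted p = 0.0825) and Itgav (-0.20 ± 0.10, adjusted p = 0.169) missed the threshold with all arrays and passed it without control array 3 (-0.27, adjusted p = 0.0132, and -0.33, adjusted p = 0.0229).

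Itgb3, the beta subunit of a vitronectin receptor that also serves platelets, was dim in all 5 groups. It read 5.67, 5.33 and 5.42 on the Myc-labelled arrays, 5.45, 5.57 and 5.76 on the NeuT, 6.20, 6.63 and 6.04 on the Ras and 5.64, 5.99 and 5.60 on the Src arrays, against 5.97, 6.19 and 5.62 on the control arrays. A single array, Ras array 2, rose above the median level, and every oncogene group overlapped control. No difference from control was called, from -0.46 ± 0.17 in Myc-labelled (adjusted p = 0.0641) to 0.36 ± 0.17 in Ras cells (adjusted p = 0.152). Without control array 3 the Myc-labelled (-0.61, adjusted p = 0.0125) and NeuT differences (-0.49, adjusted p = 0.0452) passed, and the Myc-labelled one also did without Ras array 2 (adjusted p = 0.0359). Of 5 measured platelet and megakaryocyte markers, Ppbp averaged 6.91 in Ras cells against 12.09 in control. The other 4 averaged 3.97 (Pf4), 6.60 (Itga2b), 6.61 (Gp9) and 6.83 (Treml1) in Ras cells, against 4.62, 6.57, 6.55 and 6.85 in control.

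Itgb5, the beta subunit of another vitronectin receptor, was lower in Ras and NeuT cells and higher in Src cells. Its level was 8.24, 7.98 and 8.05 on the Myc-labelled arrays, 7.81, 7.86 and 7.96 on the NeuT, 6.59, 6.79 and 6.29 on the Ras and 8.86, 8.54 and 8.81 on the Src arrays, against 8.40, 8.20 and 8.44 on the control arrays. The Ras arrays lay far below and the Src arrays above all others. The Ras decrease was 3.46-fold (-1.79 ± 0.13, adjusted p = 9.865e-08) and the NeuT decrease 1.39-fold (-0.47 ± 0.13, adjusted p = 0.0119). The Src increase was 1.31-fold (0.39 ± 0.13, adjusted p = 0.0361) and did not pass without control array 1 or 2 or Src array 1 or 3 (adjusted p = 0.0578, 0.123, 0.123 and 0.109) or with only the Src and control arrays (adjusted p = 0.0501). The Myc-labelled difference of -0.26 (95% interval -0.53 to 0.01) was not called.

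Itgb8, whose pair with Itgav is known to activate latent TGF-beta, was above the median level in control cultures alone. Its level was 5.97, 5.83 and 5.96 on the Myc-labelled arrays, 6.09, 6.03 and 5.94 on the NeuT, 6.24, 6.12 and 5.97 on the Ras and 6.03, 6.02 and 6.09 on the Src arrays, against 7.80, 7.81 and 10.42 on the control arrays. All 12 oncogene arrays lay below all 3 control arrays, and control array 3 stood 2.62 above the mean of the other control arrays. It was the only integrin gene of the 9 at least 2-fold apart on that array. The decrease over the 4 oncogene groups was -2.66 ± 0.38 (adjusted p = 8.754e-05) with all arrays and -1.78 ± 0.08 (adjusted p = 3.16e-10) without control array 3, so its size depends on that array and its direction does not. By group the differences ran from -2.76 ± 0.48 in Myc-labelled to -2.57 ± 0.48 in Ras cells with all arrays, and from -1.88 to -1.70 without control array 3, where adjusted p lay between 1.502e-09 and 4.166e-09.

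On control array 3 the 10 kidney tubule markers averaged 9.72, against 5.64 and 5.70 on the other control arrays, and they lay between 5.66 and 5.86 on the oncogene arrays. Of 12 endothelial markers, 5 were at least 2-fold higher there, with a list mean of 6.73 against 5.68 and 5.75 on the other control arrays and 5.73 to 6.03 on the oncogene arrays. On those other control arrays Itgb8 was at 7.80 and 7.81. The part of kidney transcripts in the Itgb8 level of control array 3 was not tested.

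**Figure D2:**
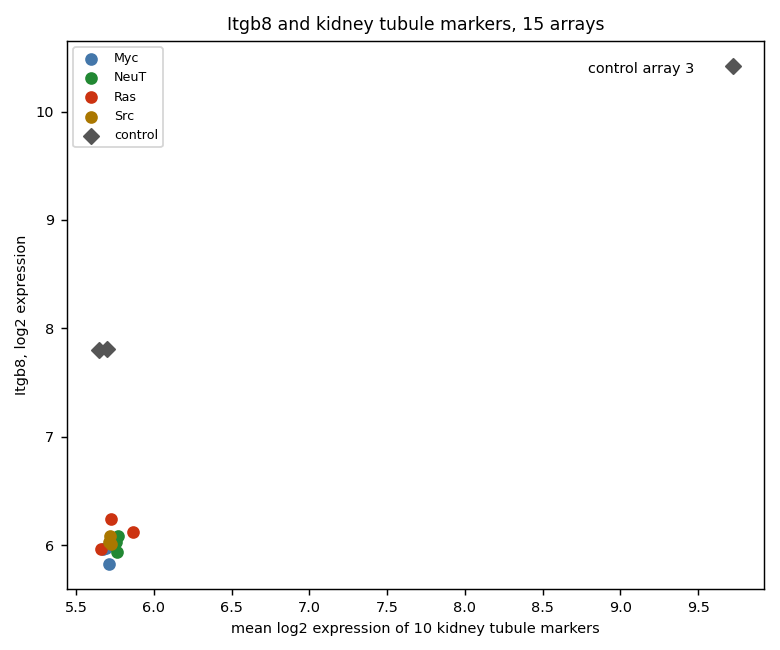
Itgb8 level (vertical axis, log2 expression) against the mean log2 expression of 10 kidney tubule markers (horizontal axis) on each of the 15 arrays, coloured by group, with control arrays as diamonds. Control array 3 stands at 9.72 for the kidney markers and 10.42 for Itgb8, while the other control arrays lie at 7.80 and 7.81 for Itgb8 with kidney markers at 5.64 and 5.70.

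**Figure D3:**
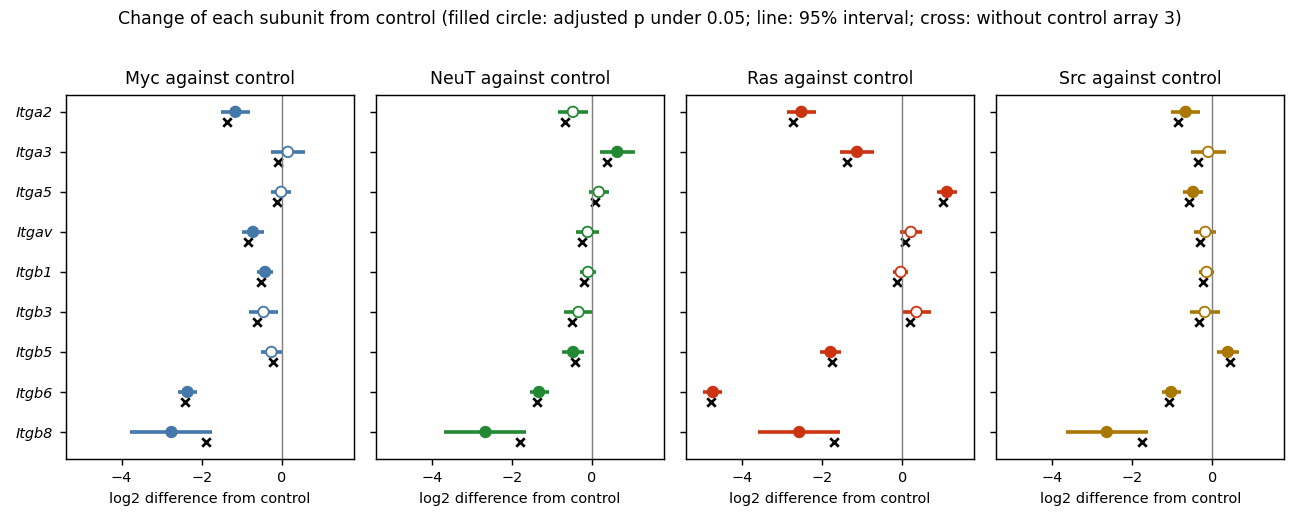
Log2 difference from control of each integrin subunit gene in the Myc-labelled, NeuT, Ras and Src groups, 1 panel per group. Circles are estimates from all 15 arrays, filled where the adjusted p is under 0.05, lines are 95% intervals, and crosses are estimates without control array 3. Itgb6 reaches -4.73 in Ras cells, and Itga5 is on opposite sides of 0 in Ras (1.12) and Src cells (-0.48).

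The oncogene groups were next compared with each other, which leaves the control arrays and their culture history out of the differences. Of the 9 genes, 8 differed among the 4 oncogene groups by the F test, where 42.1% of all genes did, and 5 also spanned at least 1 on the log2 scale between group means (11.2% of all genes). The exception was Itgb8, with a range of 0.19 (adjusted p = 0.998). Among the 10086 genes with a mean at or above the median level, the F test called 69.3%, including 7 of the integrin genes. The 6 pairs called 30.4% to 48.6% of those brighter genes. Itgb6 spanned 3.70 between the Ras and Src means (adjusted p = 2.947e-11), which ranked 125 of 19938 genes by size. Itgb5 spanned 2.18 (adjusted p = 6.405e-08), Itga2 2.04 (adjusted p = 1.457e-06), Itga3 1.76 (adjusted p = 5.068e-05) and Itga5 1.60 (adjusted p = 5.554e-07). Itgav, Itgb3 and Itgb1 spanned 0.94, 0.81 and 0.38 (adjusted p = 0.0003043, 0.00615 and 0.0129).

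Ras cells differed from each of the other oncogene groups in most of these genes. Between Myc-labelled and Ras cells 8 of 9 genes were called, 4 higher and 4 lower in Myc-labelled cells (28.4% of all genes called, 16.6% higher and 11.8% lower). Between NeuT and Ras cells 6 were called, 4 higher and 2 lower in NeuT cells (28.1%, 16.5% higher and 11.6% lower), and between Ras and Src cells 7 were called, 3 higher and 4 lower in Ras cells (26.2%, 12.1% higher and 14.1% lower). In all 3 comparisons Itga2, Itga3, Itgb5 and Itgb6 were lower in Ras cells and Itga5 and Itgb3 higher. The Itgb6 difference was 2.37 ± 0.11 for Myc-labelled minus Ras (adjusted p = 1.462e-09), 3.40 ± 0.11 for NeuT minus Ras (adjusted p = 3.965e-11) and -3.70 ± 0.11 for Ras minus Src (adjusted p = 1.483e-11). For Ras minus Src, Itga5 differed by 1.60 ± 0.11 (adjusted p = 1.371e-07) and Itgb5 by -2.18 ± 0.13 (adjusted p = 1.422e-08). Itgav was higher in Ras than in Src cells as well (0.39, adjusted p = 0.0374), a call lost without Ras array 1 or 3 or any 1 of the Src arrays (adjusted p = 0.0652 to 0.145). For Itgb3 the differences were -0.81 for Myc-labelled minus Ras (adjusted p = 0.00234), -0.69 for NeuT minus Ras (adjusted p = 0.00705) and 0.55 for Ras minus Src (adjusted p = 0.0309), all between levels near or below the median level. The last of these was lost without Ras array 2 or Src array 1 or 3 (adjusted p = 0.0979 to 0.118) and with only the arrays of that pair (adjusted p = 0.0502). For NeuT minus Ras, Itgav was not called (-0.33, adjusted p = 0.0760) and was without control array 3 or Myc-labelled array 3 (adjusted p = 0.0293 and 0.0404), as it was under several other settings (adjusted p from 0.00597 to 0.0484).

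Myc-labelled cells had the lowest Itgav and Itgb1 of the oncogene groups. Between Myc-labelled and NeuT cells 4 genes were called, all lower in Myc-labelled cells (14.9% of all genes called, 6.99% higher and 7.95% lower): Itgb6 (-1.03, adjusted p = 2.172e-05), Itga2 (-0.68, adjusted p = 0.0148), Itgav (-0.61, adjusted p = 0.00485) and Itgb1 (-0.32, adjusted p = 0.0273). Between Myc-labelled and Src cells 5 were called, 1 higher and 4 lower in Myc-labelled cells (18.9%, 11.4% higher and 7.57% lower). The lower ones were Itgb6 (-1.33, adjusted p = 1.307e-06), Itgb5 (-0.65, adjusted p = 0.00217), Itgav (-0.54, adjusted p = 0.00802) and Itgb1 (-0.27, adjusted p = 0.0480), and the higher one was Itga5 (0.46, adjusted p = 0.0106). Itgav was also lower in Myc-labelled than in Ras cells (-0.94, adjusted p = 7.093e-05), as was Itgb1 (-0.38, adjusted p = 0.00481). The Itgb1 difference from NeuT cells lost its call without Myc-labelled array 1 or 3 or NeuT array 1 or 2 (adjusted p = 0.0698 to 0.115), and that from Src cells without any 1 of 11 of the 15 arrays (adjusted p = 0.0515 to 0.175) or with median centring of the arrays (adjusted p = 0.132). Itga2 against NeuT was lost without Myc-labelled array 1 (adjusted p = 0.0766) and Itga5 against Src without Src array 1 (adjusted p = 0.0550). Uncalled differences were those of Itga2 from Src (-0.49, adjusted p = 0.0629), which passed without control array 3 or Ras array 3 (adjusted p = 0.0145 and 0.0380) and under several other settings (adjusted p from 0.00988 to 0.0484), and of Itga3 from NeuT (-0.48, adjusted p = 0.151), which passed without control array 3 (adjusted p = 0.0391).

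NeuT and Src cells had the fewest calls of the 6 pairs, with 3 genes called, 2 higher and 1 lower in NeuT cells (20.2% of all genes, 12.2% higher and 7.95% lower). Itga3 (0.73, adjusted p = 0.0187) and Itga5 (0.65, adjusted p = 0.0009864) were higher and Itgb5 (-0.86, adjusted p = 0.0002381) lower in NeuT than in Src cells. The Itga3 call was lost without NeuT array 2 or 3 or Src array 1 or 2 (adjusted p = 0.0546 to 0.0731). Itgb6 (-0.29, 95% interval -0.53 to -0.06, adjusted p = 0.0801) and Itga2 (0.19, -0.18 to 0.56) were not called, although the arrays of the pair did not overlap for either gene. Without NeuT array 1 the Itgb6 difference passed (-0.39, adjusted p = 0.0326), as it did with quantile normalization (-0.43, adjusted p = 0.0124) or array weights (-0.34, adjusted p = 0.0141). For Itgb8 no pair of oncogene groups was called, with estimates from -0.19 to 0.07 and the interval for Ras minus Src from -0.96 to 1.09. The spread behind that interval includes control array 3. Without that array the SE of these Itgb8 differences was 0.08 in place of 0.48. Again no pair was called, with adjusted p from 0.103 to 0.874.

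**Figure D4:**
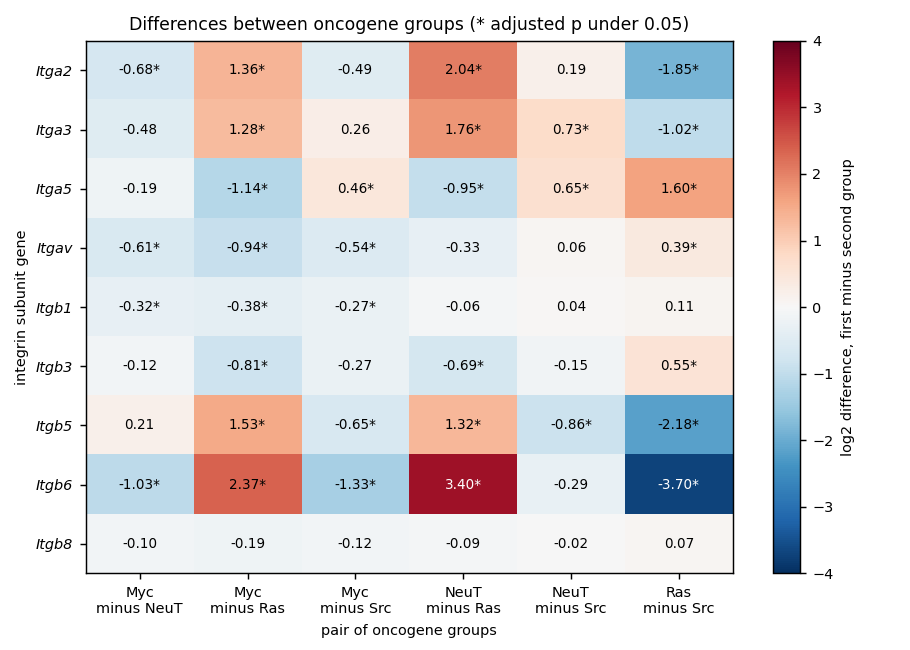
Log2 differences between oncogene groups (first minus second, colour scale from -4 to 4) for the 9 integrin subunit genes in the 6 pairs of groups, with an asterisk where the adjusted p is under 0.05. The Ras columns hold the deepest colours, up to -3.70 for Itgb6 in Ras minus Src, and the Itgb8 row has no asterisk.

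Several subunit genes had like profiles over the 15 arrays, which fall into 5 groups and share 1 normalization, so the correlations below describe group levels. Itga2 and Itgb6 had Pearson r = 0.97, although their products are not partners. Itgav and Itgb1, which can pair, had r = 0.93. Itga5 and Itgb5 ran opposite to each other, with r = -0.96. Among 9717 other genes with a mean at or above the median level, those most like Itgb6 were Jup (r = 0.98), which encodes plakoglobin of desmosomes and adherens junctions, Arhgef3 (0.98), a guanine nucleotide exchange factor, and Foxa1 (0.98), a transcription factor of prostate epithelium. Jup had means of 8.22 in Myc-labelled, 8.73 in NeuT, 6.65 in Ras and 9.17 in Src cells, against 9.50 in control. Those most like Itga2 were Stap2, Myo1d and Plekha7 (all r = 0.98), of which Plekha7 encodes an adherens junction protein. Itgb6 and Itga2 had 74 and 91 genes at r of 0.9 or more.

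For Itgb5 the most alike genes were Jag1, a Notch ligand (r = 0.97), Rrp36 (0.96) and Fam83b (0.95), and Fam83b had means of 8.03 in Myc-labelled, 7.74 in NeuT, 4.66 in Ras and 8.64 in Src cells, against 8.61 in control. For Itga5 they were Rbfox2, a splicing regulator (0.96), Slc25a37 (0.94) and Map3k8, a kinase upstream of ERK (0.94). Itga3 was most like Ap2b1, a subunit of the clathrin adaptor, Stxbp2 and Smurf1, a ubiquitin ligase (all r = 0.97). Itgav was most like Mical2 (0.96), Brox (0.95) and Anxa2 (0.94), and Itgb1 most like Brox (0.94), Anxa2 (0.93) and Utrn (0.93). Itgb3 was most like Mapk14 (0.90), Pdlim2 (0.89) and Ube2d2a (0.88). Itgb8 was most like Tcn2 (0.99), Cyba (0.97) and Fggy (0.96), and Tcn2 was at 10.50 on control array 3, against 8.40 and 8.27 on the other control arrays. Correlations of Itgb8 with these genes were not computed without that array.

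The promoter windows of the 4 genes with the most closely matched or opposed profiles are shown because those profiles moved together or apart. Sequences are from RefSeq on GRCm38.p6, 250 bases before the most upstream listed start, 5′ to 3′ on the gene's strand, with motif matches in capitals. Itgb6 lies on the minus strand (window chr2:60722604-60722853, 52.0% GC), Itga2 on the minus strand (chr13:114932101-114932350, 60.8% GC), Itgb5 on the plus strand (chr16:33829415-33829664, 65.2% GC) and Itga5 on the minus strand (chr15:103366792-103367041, 55.6% GC).
Itgb6: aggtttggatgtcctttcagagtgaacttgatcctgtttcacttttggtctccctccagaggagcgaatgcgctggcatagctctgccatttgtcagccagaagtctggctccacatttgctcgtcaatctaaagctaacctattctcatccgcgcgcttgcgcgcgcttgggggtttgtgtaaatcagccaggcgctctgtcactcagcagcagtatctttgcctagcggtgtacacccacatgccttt
Itga2: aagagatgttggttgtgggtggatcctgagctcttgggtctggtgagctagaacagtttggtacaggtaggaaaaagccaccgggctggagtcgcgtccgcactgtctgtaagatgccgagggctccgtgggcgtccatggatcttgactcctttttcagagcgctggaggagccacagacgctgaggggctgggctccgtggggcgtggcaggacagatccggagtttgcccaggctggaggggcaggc
Itgb5: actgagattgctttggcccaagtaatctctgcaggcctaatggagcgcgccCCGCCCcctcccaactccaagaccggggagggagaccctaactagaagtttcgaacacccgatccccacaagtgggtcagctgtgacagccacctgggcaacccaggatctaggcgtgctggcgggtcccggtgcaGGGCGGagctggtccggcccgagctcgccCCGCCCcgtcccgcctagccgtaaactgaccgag
Itga5: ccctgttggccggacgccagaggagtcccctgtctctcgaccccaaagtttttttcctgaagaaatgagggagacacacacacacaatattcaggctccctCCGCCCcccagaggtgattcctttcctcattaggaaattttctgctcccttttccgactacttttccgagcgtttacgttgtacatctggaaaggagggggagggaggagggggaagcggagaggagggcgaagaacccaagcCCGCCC

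Of the 9 genes, 8 had such a window (Itgb3 is named only). The windows were searched on both strands for 5 motifs. The GC box GGGCGG was found in 4 of 8 windows, with 3 matches in Itga3, 3 in Itgb5, 2 in Itga5 and 1 in Itgb1, where 33.0% of 27025 promoter windows held it. The ETS core GGAAGT was found in 1 of 8 (Itgav), where 19.9% of all windows held it. The AP-1 motif TGANTCA (6.85% of all windows), the E-box CACGTG (6.04%) and the TATA box TATAAA (13.0%) had 0 matches in the 8 windows. The Itgb6 and Itga2 windows thus held none of the 5 motifs, and the Itgb5 and Itga5 windows shared the GC box. These are matches of letters in the windows and do not bear on binding.

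Transcripts of the proteins that link integrins to actin were called lower more often than higher in Myc-labelled, Ras and Src cells, and in near equal numbers in NeuT cells. Of 23 measured adhesion plaque genes, 2 were higher and 13 lower in Myc-labelled cells (median log2 difference -0.43), 5 higher and 7 lower in NeuT (-0.02), 2 higher and 11 lower in Ras (-0.33) and 2 higher and 11 lower in Src cells (-0.33), where the medians over all genes were 0.03, 0.02, 0.02 and 0.06. The shares called were 65.2%, 52.2%, 56.5% and 56.5%, against 28.6%, 26.8%, 27.4% and 26.4% of all genes. Among genes with a mean at or above the median level the shares were higher, at 48.5%, 46%, 44% and 40.5%. This holds beside the lists below as well, none of which was matched to all genes by level. Without control array 3 the counts were 2 and 14, 3 and 9, 3 and 13, and 1 and 14. Fermt1, the epithelial kindlin that activates beta subunits, was at 5.20 in Ras cells, under the median level, against 10.27 in control (-5.07 ± 0.13, adjusted p = 2.977e-12). It was also lower in Myc-labelled (-1.01), NeuT (-0.53) and Src cells (-0.98; adjusted p = 2.793e-05, 0.00545 and 5.416e-05). Fermt2, the more widely expressed kindlin, was called lower in Myc-labelled (-2.38 ± 0.19, adjusted p = 5.494e-07), NeuT (-1.28 ± 0.19, adjusted p = 0.0001486) and Src cells (-2.68 ± 0.19, adjusted p = 2.337e-07), whereas in Ras cells its difference was 0.30 ± 0.19 (adjusted p = 0.275). Ilk, the integrin-linked pseudokinase, was lower in all 4 groups, with differences of -1.15 in Myc-labelled, -0.65 in NeuT, -0.34 in Ras and -1.09 in Src cells (adjusted p = 1.371e-06, 0.0002325, 0.0211 and 3.215e-06). Parvb, a parvin that binds Ilk, rose in all 4 groups, by 1.66, 2.50, 1.82 and 1.51 in that order (adjusted p from 2.747e-08 to 4.635e-06). Actn1, the actin crosslinker alpha-actinin 1, was lower in Myc-labelled (-0.89), Ras (-1.59 ± 0.15) and Src cells (-0.84; adjusted p = 0.000327, 1.572e-06 and 0.000763), and its NeuT difference of -0.35 did not pass (adjusted p = 0.103). Zyx, which encodes zyxin of focal adhesions, was lower in the same groups (-0.93, -0.60 and -0.57, adjusted p from 4.871e-06 to 0.000507), and its NeuT difference of -0.16 did not pass (adjusted p = 0.266). Tns2, a tensin, rose in Ras cells by 1.11 ± 0.12 (adjusted p = 9.669e-06), and its other differences did not pass.

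Ligands of the Itgav and Itga5 integrins, many of them RGD-bearing, changed in both directions. The list, named RGD ligands below, also holds integrin ligands such as Ccn2 that are not counted as RGD-bearing. Of 16 measured genes, 0 were higher and 9 lower in Myc-labelled cells (median -0.62), 4 and 4 in NeuT (0.14), 3 and 6 in Ras (0.02) and 1 and 6 in Src cells (-0.13), beside the same medians over all genes as above. The shares called were 56.2%, 50%, 56.2% and 43.8%, against 28.6%, 26.8%, 27.4% and 26.4% of all genes. Without control array 3 they were 0 and 9, 3 and 4, 3 and 6, and 1 and 7. Fn1, which encodes fibronectin, was lower in Src (-3.54 ± 0.29, adjusted p = 8.776e-07), Ras (-2.52 ± 0.29, adjusted p = 1.178e-05) and Myc-labelled cells (-1.34 ± 0.29, adjusted p = 0.00254), and its NeuT difference of 0.57 did not pass (adjusted p = 0.179). Thus Fn1 was lower in Ras cells while Itga5 was higher there. Ccn2, a matricellular protein, was lower in all 4 groups, by log2 differences of -1.39 in Myc-labelled, -1.41 in NeuT, -2.49 in Ras and -1.70 in Src cells (adjusted p from 6.207e-08 to 2.221e-05). Tnc, which encodes tenascin C, was lower in Myc-labelled (-4.36 ± 0.17, adjusted p = 1.144e-09) and Ras cells (-2.99 ± 0.17, adjusted p = 1.272e-08) and higher in NeuT cells (1.39 ± 0.17, adjusted p = 3.109e-05). Thbs1, thrombospondin 1, was lower in Myc-labelled (-2.66, adjusted p = 3.353e-07), NeuT (-1.67, adjusted p = 2.491e-05) and Ras cells (-4.57 ± 0.20, adjusted p = 7.156e-10). Nid1, a basement membrane linker, rose by 3.21 ± 0.15 in Ras cells (adjusted p = 1.286e-09), with levels of 10.23 in Ras against 7.01 in control, and was lower in Myc-labelled (-1.23), NeuT (-1.33) and Src cells (-1.13; adjusted p from 1.428e-05 to 8.574e-05). Tgfb1, whose latent form is a ligand of the Itgb6 and Itgb8 pairs, rose by 0.44 ± 0.11 in NeuT, 0.90 ± 0.11 in Ras and 0.82 ± 0.11 in Src cells (adjusted p = 0.00727, 2.145e-05 and 8.5e-05).

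Collagen and laminin genes, ligands of the Itga2 and Itga3 integrins, were called at shares of 30.8% in Myc-labelled, 15.4% in NeuT, 38.5% in Ras and 15.4% in Src cells, against 28.6%, 26.8%, 27.4% and 26.4% of all genes. Of 13 measured genes, 1 was higher and 3 lower in Myc-labelled, 2 and 0 in NeuT, 3 and 2 in Ras and 1 and 1 in Src cells. Median log2 differences were -0.10, 0.04, 0.11 and 0.04 in that order, and the counts without control array 3 were 1 and 4, 2 and 0, 3 and 3, and 0 and 1. Lama3 and Lamb3, chains of the epithelial laminin that Itga3 binds, were lower in Ras cells (-2.68 ± 0.21, adjusted p = 2.579e-07, and -1.50, adjusted p = 5.742e-06), where Itga3 was lower as well. Lamc1, a chain of other laminins, rose by 1.06 ± 0.12 in Ras cells (adjusted p = 1.425e-05). The Lamb3 increase in Src cells (0.47, adjusted p = 0.0420) was lost without control array 3 (adjusted p = 0.157).

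**Figure D5:**
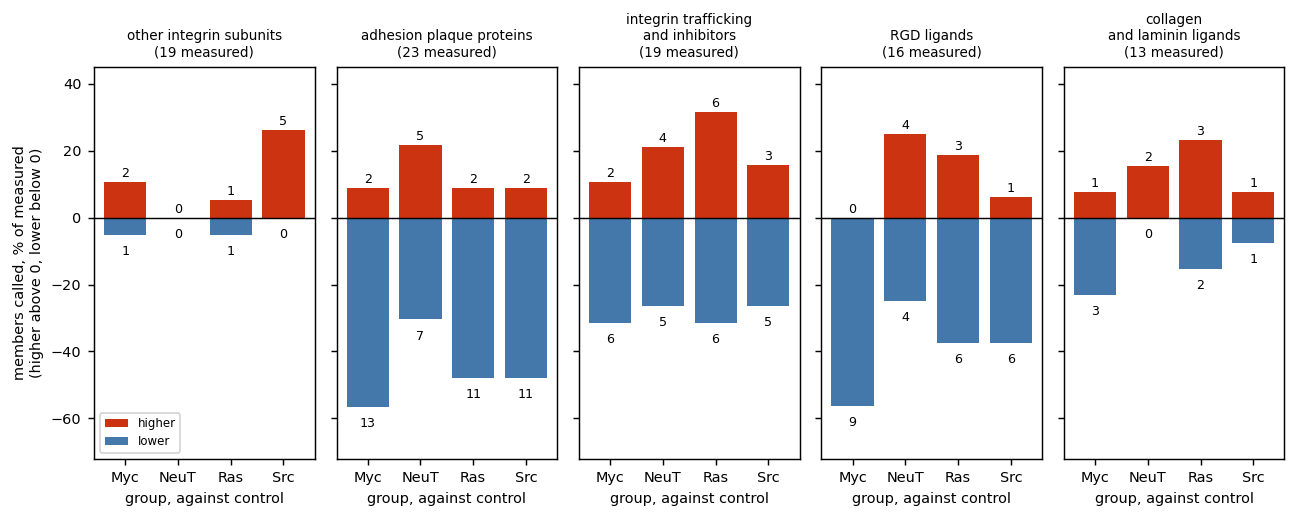
Share of the measured genes of 5 lists that were called higher (above 0) or lower (below 0) than control in the Myc-labelled, NeuT, Ras and Src groups, with the number of genes on each bar. Adhesion plaque genes have 13, 7, 11 and 11 lower members of 23, and RGD ligands 9, 4, 6 and 6 of 16.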

How the data were processed

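Total RNA was taken up in Trizol and amplified by WT-Ovation Pico, per the labels' protocols. The values the authors deposited are log2 expression per probe set, already normalized between arrays. The submitters' processing notes name RMA and Affymetrix Expression Console 1.1 without saying which step each did, and the sources used here give no genome build. Only probe sets assigned to 1 gene were kept, 21789 of 35556, and the brightest by mean stood for each of 999 genes that had several, leaving 19938 genes. Array medians ran from 6.19 to 6.32, and having 3 arrays per group limits the precision.

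limma 3.58.1 (R 4.3.3) estimated 5 group means from all 15 arrays with no filter on low values. Tests were two-sided, with Benjamini-Hochberg adjustment across the 19938 genes. The oncogene groups were set against control singly and together, against each other in 6 pairs, and compared by an F test. Differences carry an SE, levels an SD, and intervals cover 95%. The members and all gene lists were chosen with earlier results of these data known. All 9 members are given. Genes of the other lists were named from the 4 called with the smallest p in a contrast, not all of those, and were followed through the other contrasts. Marker lists are given as ranges, with the 3 genes most like each member by Pearson r, leaving out predicted genes. Of 20 RGD ligand symbols, 16 were measured. Promoter windows came from RefSeq (GRCm38.p6). The fit was tested on simulated data. Other settings tried were centring or quantile normalization of the arrays, a filter on dim genes, averaged probe sets, another variance model, array weights, fits of only the compared groups, a replicate block, a 2-fold minimum and leaving out each array. Figures were made with matplotlib 3.10.9, and tables with pandas 2.3.3 and numpy 2.4.6 in Python 3.11.15.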

Additional observations from a re-analysis of the deposited data

Results flagged for a closer look

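For 8 of the 9 integrin genes the change from control differed between oncogene groups, by the limma test of the difference itself, and the pair of groups furthest apart is given for each. The adjusted p-values are not corrected for choosing that pair, and the share of all genes passing such a choice was not computed. The F test, which needs no such choice, called 8 of the 9 and 42.1% of all genes. Among genes with a mean at or above the median level it called 69.3%, including 7 integrin genes. For Itgb6 the difference of the changes, Ras minus Src, was -3.70 (adjusted p = 1.483e-11), and for Itgb5 it was -2.18 (adjusted p = 1.422e-08). For Itga5, Ras minus Src was 1.60 (adjusted p = 1.371e-07), with all 3 Ras arrays above and all 3 Src arrays below the control arrays. For Itga2 and Itga3, NeuT minus Ras was 2.04 and 1.76 (adjusted p = 7.464e-07 and 1.388e-05). For Itgav, Itgb1 and Itgb3, Myc-labelled minus Ras was -0.94, -0.38 and -0.81 (adjusted p = 7.093e-05, 0.00481 and 0.00234). Among the 4 oncogene groups, Ras was at one end of the range of group means in all 8 genes.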

How the results depend on the processing

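Of the log2 differences of single genes under the alternatives, 2157 kept their direction and side of the threshold, 46 gained a call, 40 lost one and 14 changed sign. Many of the 2157 could not have changed direction. Averaging probe sets left every estimate as it was, since each gene had a single probe set. The dim-gene filter, other variance model, replicate block and fits of only the compared groups also left the estimates unchanged. So did leaving out an array from outside the contrast. All 14 sign changes were in uncalled differences. Itga3 became -0.034 with array weights in Myc-labelled cells and, leaving out each array in turn, ranged from -0.36 to 0.038 for the oncogene groups together, from -0.092 to 0.30 in Myc-labelled and from -0.35 to 0.046 in Src cells. Itga5 in Myc-labelled cells became 0.036 with median centring and 0.0098 with quantile normalization, and ranged from -0.12 to 0.072 over the left-out arrays. Itgb1 in Ras cells became 0.046 with centring and ranged from -0.13 to 0.032. For NeuT minus Src, Itgav became -0.012 with quantile normalization, and Itgb8 became 0.017 with centring and 0.047 with quantile normalization and ranged from -0.058 to 0.017. The cause of these was not tested.

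With array weights 8 genes were called over the oncogene groups (37.6% of all genes), 7 in NeuT (35.3%) and 8 in Src cells (36.6%). With a 2-fold minimum the counts against control were 3 for Myc-labelled (6.46% of all genes), 2 for NeuT (5.93%) and 2 for Src (4.44%). The F test gave 5 (11.2%). Myc-labelled cells had 1 against NeuT (2.32%), 5 against Ras (6.15%) and 1 against Src (3.1%). For NeuT against Ras there were 4 (5.97%), for NeuT against Src 0 (3.56%) and for Ras against Src 5 (5.49%). Leaving out each array in turn gave 4 to 6 calls for the oncogene groups together, 5 to 6 for Myc-labelled, 3 to 5 for NeuT, 6 for Ras and 4 to 5 for Src against control, and 7 to 8 for the F test. Between oncogene groups it gave 2 to 5 for Myc-labelled against NeuT, 8 against Ras and 3 to 6 against Src, 6 to 7 for NeuT against Ras, 2 to 4 for NeuT against Src and 5 to 7 for Ras against Src. The count of 2 for Myc-labelled against NeuT came without Myc-labelled array 1, and that of 3 against Src without Src array 1. Among these fits, shares of all genes called were computed only for the fit without control array 3.

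Same-numbered arrays of different groups had residual correlations from -0.08 to 0.12 over 30 pairs, 3 of them over 0.1, and 11 of 15 arrays correlated best with their own number, a hint of shared variation from the data and not from the design. Since no label says what a number shares and most pairs were not over 0.1, the numbers were not taken to pair the samples. With a replicate block the counts were 5, 5, 5, 6 and 5 against control (together, Myc-labelled, NeuT, Ras, Src) and 8 for the F test. The shares of all genes called were 28.9%, 28.6%, 26.7%, 27.4% and 26.7%, and 41.7% for the F test. Calls were gained by Itgb1 (together, adjusted p = 0.0418), Itga2 (NeuT against control, 0.0426, and Myc-labelled against Src, 0.0484) and Itgav (NeuT against Ras, 0.0461). Other scalings moved the median of all genes by less than 0.1. With 3 arrays per group, levels below 6.47 such as those of Itgb3, of Itgb8 in the lines and of Itgb6 in Ras cells may lie near background, which limits the size of their differences. The same holds for Fermt1 (5.20), Rab25 (6.21) and Lama3 (6.29) in Ras cells and for Tnc (5.44) in Myc-labelled cells. It also holds for Nid1 in Myc-labelled, NeuT and Src cells (5.68 to 5.88).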

Other observations

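Genes that carry integrins through endosomes, hold them inactive or, like the tetraspanins and Cd47, partner with them at the membrane changed in both directions. Of 19 measured, 2 were higher and 6 lower in Myc-labelled, 4 and 5 in NeuT, 6 and 6 in Ras and 3 and 5 in Src cells against control, shares of 42.1%, 47.4%, 63.2% and 42.1% against 28.6%, 26.8%, 27.4% and 26.4% of all genes. Their median log2 differences were -0.05, 0.12, 0.08 and -0.13 in that order, and the counts without control array 3 were 1 and 6, 4 and 5, 6 and 7, and 5 and 4. Rab25, an epithelial Rab GTPase that recycles Itgb1 integrins, was at 6.21 in Ras cells against 9.66 in control (-3.46 ± 0.17, adjusted p = 2.839e-09), and its other differences ranged from -0.31 in Src to 0.57 in NeuT cells, of which the NeuT one passed with all arrays (adjusted p = 0.0250) and not without control array 3 (adjusted p = 0.0935). Rab11fip1, a Rab11 and Rab25 effector, was lower in all 4 groups, with differences of -1.48 in Myc-labelled, -1.08 in NeuT, -1.65 in Ras and -1.49 in Src cells (adjusted p from 1.452e-06 to 8.692e-05). Numb, an endocytic adaptor, was lower in all 4 groups, by -0.86 in Myc-labelled, -0.55 in NeuT, -1.01 in Ras and -0.76 in Src cells (adjusted p from 7.427e-07 to 0.000244). Cd81, a tetraspanin, was lower in NeuT (-2.16 ± 0.18, adjusted p = 8.029e-07), Ras (-0.69, adjusted p = 0.00938) and Src cells (-0.63, adjusted p = 0.0195), and its Myc-labelled difference of -0.45 did not pass (adjusted p = 0.0770). Itgb1bp1, which competes with talin for the Itgb1 tail, was higher in Myc-labelled (0.50, adjusted p = 0.00397) and Ras cells (0.54, adjusted p = 0.00217).

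Of the 19 other integrin subunit genes measured, 2 were higher and 1 lower in Myc-labelled, 0 and 0 in NeuT, 1 and 1 in Ras and 5 and 0 in Src cells, shares of 15.8%, 0%, 10.5% and 26.3% against 28.6%, 26.8%, 27.4% and 26.4% of all genes. Median log2 differences were 0.02, 0.01, 0.04 and 0.15, and the counts without control array 3 were 3 and 2, 0 and 0, 1 and 1, and 4 and 0. Itgb4, the beta subunit of hemidesmosomes, was lower in Ras cells (-2.05 ± 0.21, adjusted p = 4.458e-06) and Itgb7, better known from lymphocytes, was higher (1.64 ± 0.16, adjusted p = 3.097e-06), with levels of 7.87 in Ras against 6.23 in control. The 11 measured leukocyte markers averaged 5.72 to 5.81 on the Ras arrays and 5.81 to 6.13 on the control arrays. Itga6, the laminin receptor subunit that pairs with Itgb4 or Itgb1, was lower in Myc-labelled cells (-0.74 ± 0.17, adjusted p = 0.00378).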
